A study of Mus musculus with 2 samples.

Results

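The 6 genes Hnf4a, Hnf4g, Lrp2, Cubn, Slc34a1 and Slc3a1, which mark the proximal tubule of the kidney, were followed in single-nucleus ATAC-seq (snATAC-seq) of embryonic mouse kidney. Their regions were the peaks that overlapped the gene body or the 2 kb upstream of it in the GENCODE M21 annotation of mm10. This gave 58 of 159560 peaks in the Enl-WT library and 34 of 130027 in the Enl-T1 library, at 6 of 21924 protein-coding genes. Joined where they overlapped by at least 1 bp, they formed 61 of 176056 regions, of which 31 were shared, 27 came from Enl-WT alone and 3 from Enl-T1 alone. In snATAC-seq a transposase inserts sequencing adapters into accessible DNA, so that the counts at a gene measure its accessibility in each nucleus and not its transcript. Kidneys were taken from E15.5 embryos. Enl-WT kidneys were Enl+/+ Wt1GFPCre/+, and Enl-T1 kidneys were Enl flox-T1/+ Wt1GFPCre/+, in which Cre switches 1 allele of Enl (Mllt1, a chromatin reader of histone acylation) to a form with a small insertion found in Wilms tumor. The Wt1GFPCre knock-in was carried by both groups; it inactivates 1 Wt1 allele, and its Cre acts in Wt1-expressing nephron and stromal progenitors and their descendants, not in every kidney cell. Each group had 1 library, and the number of embryos behind it is not stated in any source used here.

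The proximal tubule is the first tubular segment after the glomerulus and takes back most of the filtered salts, sugars, amino acids and proteins. HNF4A and HNF4G are related nuclear receptors that bind the same kind of DNA site and activate genes of the mature segment. Megalin (Lrp2) and cubilin (Cubn) are large receptors of the brush border that take up filtered proteins, while Slc34a1 encodes a sodium-phosphate cotransporter and Slc3a1 encodes rBAT, the partner subunit of the transporter of cystine and dibasic amino acids.

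With at least 2000 counts in peaks, 9472 Enl-WT and 12635 Enl-T1 nuclei were kept, with a median of 14789.5 and 8753 counts, so Enl-WT was the more deeply sequenced per nucleus. There were 169 barcodes present in both libraries. Nuclei were clustered without the regions of the 6 genes and named from other marker genes. Clusters 0 and 2 scored highest for nephron progenitor markers, and 6 of the 7 were raised in each. None of these markers was among the 10 leading genes of either, and those of cluster 2 included Umod and Slc13a1. Both are therefore called by number. The podocyte-, proximal tubule-, distal tubule or loop- and ureteric epithelium-like clusters also had none of their own markers among their 10 leading genes. The same held for stroma-like clusters 1, 5, 7, 8, 13 and 16. All of these keep their names, so the naming was more cautious for clusters 0 and 2. Nearly all nuclei of cluster 0 were Enl-T1 (4171, against 28 of Enl-WT) and nearly all of cluster 2 were Enl-WT (1807 against 95). The proximal tubule-like nuclei were 1 cluster of 976 Enl-WT nuclei, 10.3% of the library (interval 9.7 to 10.9%), and 119 Enl-T1 nuclei, 0.942% (0.781 to 1.13%). In that cluster 10 of the 16 proximal tubule markers were raised. None of the 16 was among its 10 leading genes, which included Ambp, Tinag and Slc3a1 itself. Slc5a12, Slc17a3 and Miox had no shared region and so no count. Since neither group had a second library, no spread between replicates was known and no test between the groups was made. All intervals are 95% intervals and cover counting error only. Levels in CPM are counts per 1000000 counts in peaks of the library and class named.

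Sequences at the annotated starts are shown for the 5 genes that the RefSeq promoter table (GRCm38.p6) lists, as the bases upstream of the start, up to 250. For Lrp2 the stretch was shortened by 36 bases that lie in an annotated exon. Capitals mark a match to a short HNF4 motif, described with its frequency after the sequences.
Hnf4a downstream start, chr2:163546905-163547154, plus strand: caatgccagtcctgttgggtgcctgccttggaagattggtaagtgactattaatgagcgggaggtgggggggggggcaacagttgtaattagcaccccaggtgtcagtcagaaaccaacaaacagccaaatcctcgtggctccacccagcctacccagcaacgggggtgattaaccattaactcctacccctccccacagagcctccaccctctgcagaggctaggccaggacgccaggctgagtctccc
Lrp2, chr2:69586066-69586279, minus strand: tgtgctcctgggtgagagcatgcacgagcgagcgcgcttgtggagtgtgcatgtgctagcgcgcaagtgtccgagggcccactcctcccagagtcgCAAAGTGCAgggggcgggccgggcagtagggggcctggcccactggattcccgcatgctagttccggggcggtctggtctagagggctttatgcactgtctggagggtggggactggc
Cubn, chr2:13491877-13492126, minus strand: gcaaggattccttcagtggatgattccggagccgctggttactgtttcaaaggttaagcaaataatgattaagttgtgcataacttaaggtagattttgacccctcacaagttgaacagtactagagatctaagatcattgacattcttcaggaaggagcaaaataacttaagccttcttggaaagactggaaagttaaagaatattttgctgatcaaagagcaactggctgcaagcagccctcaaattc
Slc34a1, chr13:55399398-55399647, plus strand: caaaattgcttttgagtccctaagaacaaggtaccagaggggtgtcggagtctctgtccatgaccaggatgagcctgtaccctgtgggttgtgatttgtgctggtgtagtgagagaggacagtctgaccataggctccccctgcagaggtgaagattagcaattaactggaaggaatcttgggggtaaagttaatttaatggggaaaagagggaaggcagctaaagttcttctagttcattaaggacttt
Slc3a1, chr17:85028097-85028346, plus strand: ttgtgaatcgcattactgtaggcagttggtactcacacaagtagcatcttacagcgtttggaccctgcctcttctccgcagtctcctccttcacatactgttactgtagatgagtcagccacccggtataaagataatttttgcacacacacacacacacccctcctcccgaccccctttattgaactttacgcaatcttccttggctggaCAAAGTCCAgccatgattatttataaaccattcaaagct
The downstream start of Hnf4a, Cubn and Slc34a1 each lay in a peak that was called in Enl-WT and had no overlapping peak in Enl-T1. The Lrp2 start lay in a peak of both libraries. No peak of either library overlapped the Slc3a1 start shown here, nor the upstream start of Hnf4a at chr2:163506607-163506807. Hnf4g is not in the table.

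The central 300 bases of 3 intronic peaks are shown because each was the peak of its gene, away from a start, with the highest level in Enl-WT proximal tubule-like nuclei. All are given on the plus strand.
Hnf4a intron, chr2:163560395-163560694, plus strand: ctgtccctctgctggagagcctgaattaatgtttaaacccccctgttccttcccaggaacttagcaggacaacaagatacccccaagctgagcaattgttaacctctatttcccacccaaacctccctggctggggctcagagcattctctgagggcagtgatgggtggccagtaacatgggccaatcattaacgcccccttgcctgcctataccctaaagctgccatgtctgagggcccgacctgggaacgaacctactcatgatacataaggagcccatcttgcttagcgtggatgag
Hnf4g intron, chr3:3613648-3613947, plus strand: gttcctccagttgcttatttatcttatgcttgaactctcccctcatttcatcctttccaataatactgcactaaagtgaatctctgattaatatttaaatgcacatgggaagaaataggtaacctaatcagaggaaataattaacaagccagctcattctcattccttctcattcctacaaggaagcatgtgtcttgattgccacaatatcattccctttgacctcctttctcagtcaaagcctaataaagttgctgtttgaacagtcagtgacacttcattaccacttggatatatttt
Slc3a1 intron, chr17:85043422-85043721, plus strand: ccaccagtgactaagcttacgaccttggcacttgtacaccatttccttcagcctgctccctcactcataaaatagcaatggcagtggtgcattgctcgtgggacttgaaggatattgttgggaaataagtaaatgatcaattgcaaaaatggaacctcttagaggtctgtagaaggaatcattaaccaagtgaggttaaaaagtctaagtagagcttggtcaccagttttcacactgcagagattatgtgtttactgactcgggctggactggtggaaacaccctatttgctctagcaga
None of these 3 held a match. The HNF4 motif was CAAAGTNCA, searched on both strands, and its letters were chosen after the promoter sequences had been seen. They occurred in 1.19% of 32851 promoters of the table. At the 6 genes they were found at the Lrp2 start and, outside any peak, at the Slc3a1 start. Counted over the central 300 bases of peaks, 1 of 58 peaks of the 6 genes held them, against 1.7% of all Enl-WT peaks. The share was 4.09% among the 15467 peaks with their highest level in proximal tubule-like nuclei and 1.38% among 127811 peaks highest in another class. A match is a description of the letters and says nothing about binding.

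In Enl-WT, 5 of the 6 genes had their highest level in proximal tubule-like nuclei, against 14.4% of 17190 genes counted the same way. The exception was Cubn, whose level was highest in endothelial-like nuclei. Levels were compared over 7 groups of nuclei, namely clusters 0 and 2 together and the podocyte-, proximal tubule-, distal tubule or loop-, ureteric epithelium-, stroma- and endothelial-like classes. When only shared regions were counted, 4 of the 6 genes were highest in proximal tubule-like nuclei, Slc34a1 then being highest in endothelial-like nuclei.

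**Figure D1:**
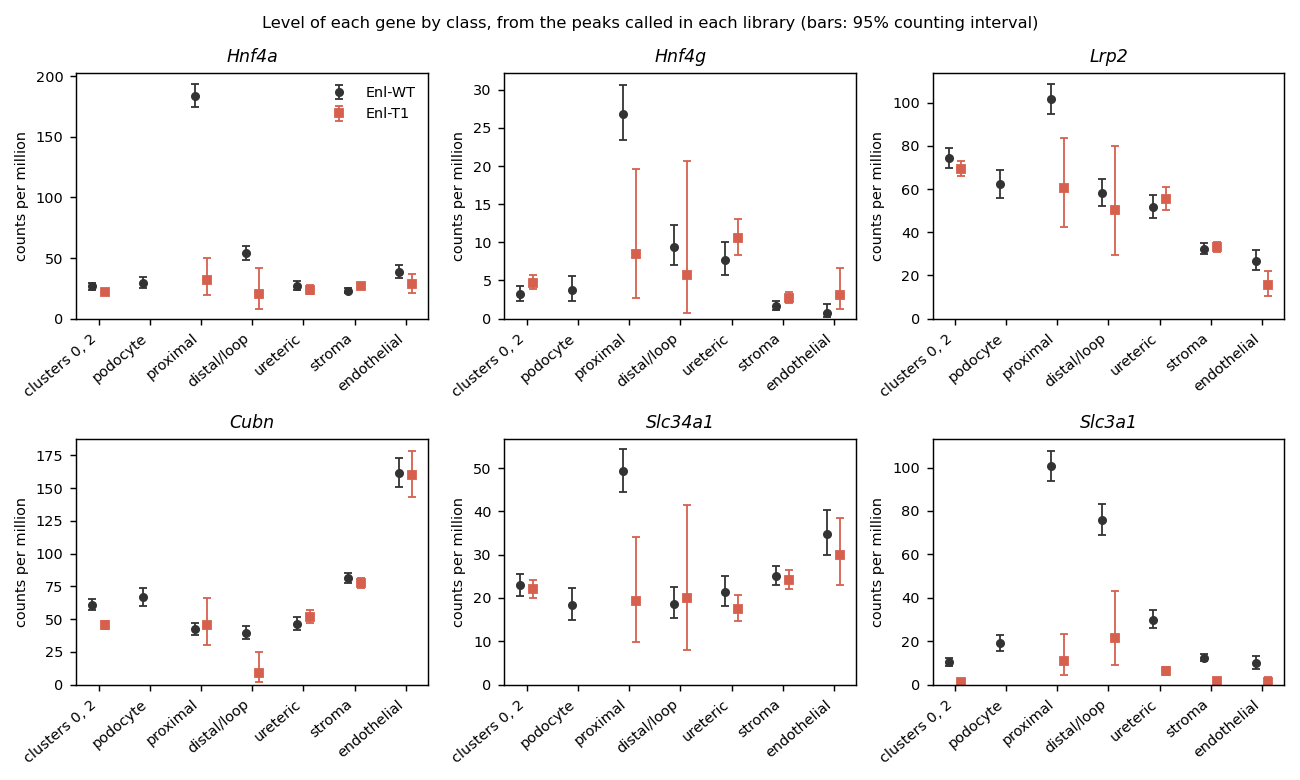
Level of each gene in CPM (y axis) in each class of nuclei (x axis), from the peaks called in each library, for Enl-WT (circles) and Enl-T1 (squares), with bars for the 95% counting interval; podocyte-like nuclei of Enl-T1 are left out because there were 6. The Enl-WT circle is highest in proximal tubule-like nuclei in every panel but that of Cubn, where both endothelial-like points are near 160 CPM.

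Hnf4a, the nuclear receptor, stood at 184 CPM (174 to 193) in proximal tubule-like nuclei of Enl-WT. Distal tubule or loop-like nuclei followed at 53.8 CPM (48.0 to 60.2), a 3.41-fold lower level, and endothelial-like nuclei at 38.7 CPM (33.6 to 44.5). From the endothelial-like class down to the stroma-like class at 23.0 CPM (21 to 25.1), each neighbour overlapped the next within counting error. Of the 9 Hnf4a peaks of Enl-WT, 8 were highest in proximal tubule-like nuclei. At chr2:163564211-163565179 the margin was small, with 5.05 CPM in distal tubule or loop-like and 5.47 CPM in proximal tubule-like nuclei. The peak at the downstream (P1) start, chr2:163546546-163547643, the promoter used in adult liver and kidney, reached 28.0 CPM there, against 8.19 CPM in distal tubule or loop-like and 1.16 CPM in stroma-like nuclei. An intronic peak at chr2:163540356-163541387 was sharper, at 27.9 CPM against 2.18 CPM or less in every other class. The peak with the highest level in this class, chr2:163560042-163561047, lay 54.2 kb into the gene and held 43.4 CPM in proximal tubule-like, 13.6 CPM in distal tubule or loop-like and 1.04 CPM in stroma-like nuclei. The remaining peak, in the intron at chr2:163516131-163517143, was the one not highest in the proximal tubule-like class, with 15.1 CPM in endothelial-like nuclei and at most 1.55 CPM elsewhere.

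Hnf4g, the paralogue of Hnf4a, had only 2 Enl-WT peaks, at its start and 106 kb into the gene. Its level was 26.8 CPM (23.4 to 30.7) in proximal tubule-like nuclei, 2.85-fold above distal tubule or loop-like nuclei at 9.41 CPM (7.07 to 12.3), which in turn overlapped ureteric epithelium-like nuclei at 7.65 CPM. Stroma-like nuclei had 1.63 CPM (1.13 to 2.26) and endothelial-like nuclei 0.767 CPM (0.209 to 1.96). The start peak, chr3:3507646-3508524, was spread over the epithelial classes, with 11.9 CPM in proximal tubule-like, 7.14 CPM in distal tubule or loop-like and 6.15 CPM in ureteric epithelium-like nuclei. The intronic peak, chr3:3613297-3614298, was concentrated in the proximal tubule-like class, at 15.0 CPM against 0.176 to 2.26 CPM in the other 6 groups.

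Lrp2, which encodes megalin, was highest in proximal tubule-like nuclei at 102 CPM (94.8 to 109), but only 1.37-fold above clusters 0 and 2 at 74.4 CPM (70.0 to 79.0). Podocyte-like nuclei at 62.2 CPM and distal tubule or loop-like nuclei at 58.2 CPM overlapped each other, and the endothelial-like class was lowest at 26.7 CPM (22.5 to 31.6). Its start peak, chr2:69585570-69586502, held 34.7 CPM in proximal tubule-like nuclei, 19.6 CPM in clusters 0 and 2 and 7.13 CPM in stroma-like nuclei, so the start was accessible in every group. Of its 14 peaks with at least 200 counts, 6 were highest in the proximal tubule-like class and 4 in clusters 0 and 2. The margin was small at some, such as chr2:69526588-69527669 with 3.11 CPM in proximal tubule-like and 3.05 CPM in distal tubule or loop-like nuclei. The intronic peak at chr2:69570364-69571252 was the most restricted, at 14.2 CPM in proximal tubule-like nuclei and 2.70 CPM in the next class, whereas the exonic peak at chr2:69551306-69552467 was higher in clusters 0 and 2, at 10.5 CPM, than in proximal tubule-like nuclei, at 6.96 CPM.

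Cubn, which encodes cubilin, differed from the other 5 genes. Endothelial-like nuclei of Enl-WT had 162 CPM (151 to 173), 1.98-fold above stroma-like nuclei at 81.7 CPM (77.9 to 85.6), and proximal tubule-like nuclei had 42.1 CPM (37.8 to 46.8), which overlapped the lowest class, distal tubule or loop-like nuclei, at 39.4 CPM (34.4 to 44.9). Of its 17 peaks with at least 200 counts, 9 were highest in endothelial-like nuclei and 1 in proximal tubule-like nuclei. That 1 peak was the start, chr2:13491407-13492401, with 10.8 CPM in proximal tubule-like nuclei and 0.959 to 3.13 CPM in the other groups. The highest endothelial-like values lay far from the start, in introns and in 1 exonic peak at chr2:13341786-13343202 with 15.1 CPM. At the intronic peak chr2:13413205-13414200 it was 32.7 CPM against 4.64 CPM or less elsewhere, and at chr2:13329655-13330585, 162 kb into the gene, it was 19.9 CPM against 0.932 CPM or less. A further intronic peak, chr2:13371883-13372860, was shared by stroma-like nuclei at 21.7 CPM and podocyte-like nuclei at 20.6 CPM. The annotation places Gm13270 within Cubn, and accessibility inside a gene body cannot be assigned to the gene by position alone.

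**Figure D2:**
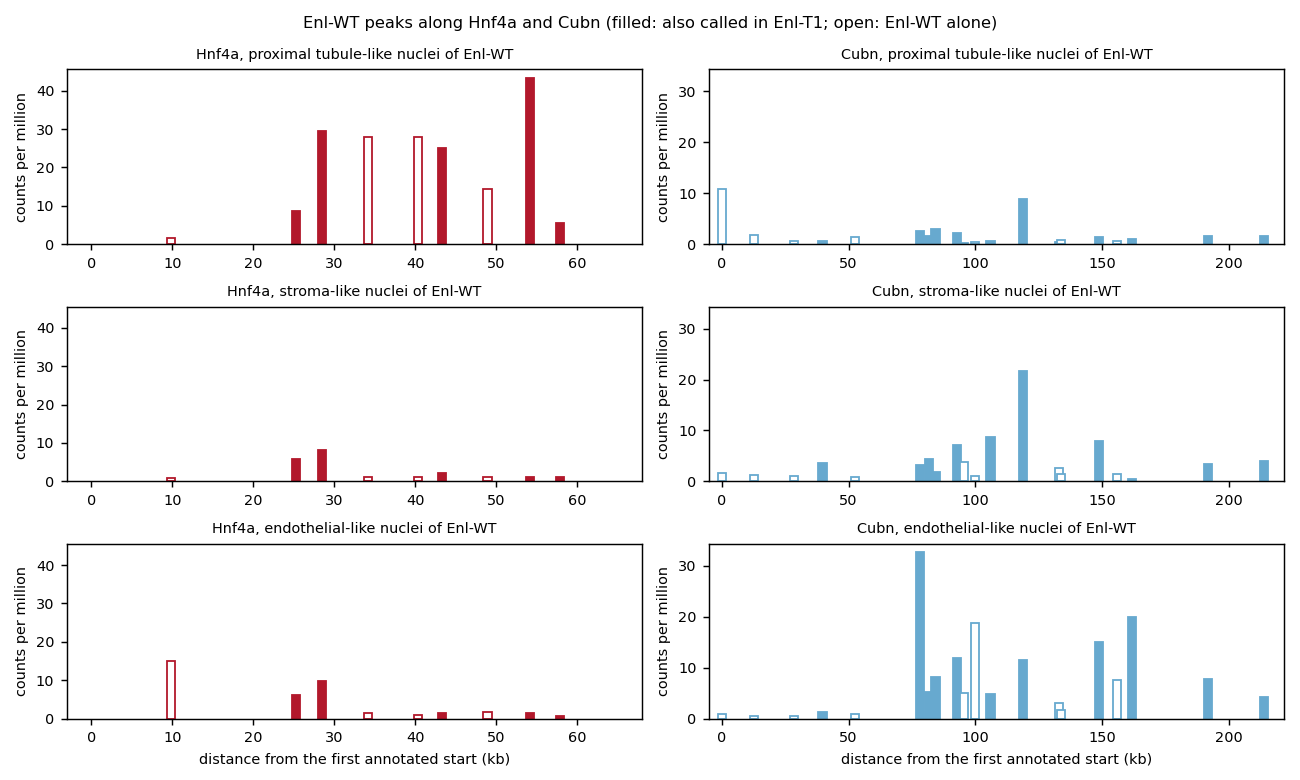
Level in CPM (y axis) of each Enl-WT peak along Hnf4a (left) and Cubn (right), by distance in kb from the first annotated start (x axis), in proximal tubule-like, stroma-like and endothelial-like nuclei of Enl-WT; filled bars are peaks that overlap a peak of Enl-T1 and open bars are peaks of Enl-WT alone. Hnf4a bars reach 43.4 CPM in proximal tubule-like nuclei and are at most 8.17 CPM in stroma-like nuclei, while the highest Cubn bar, 32.7 CPM, is in endothelial-like nuclei.

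Slc34a1, the phosphate cotransporter gene, was at 49.3 CPM (44.5 to 54.4) in proximal tubule-like nuclei and at 34.8 CPM (29.9 to 40.2) in endothelial-like nuclei, with the other groups between 18.4 and 25.1 CPM. The peak over an annotated start, chr13:55399018-55400188, separated the classes most, at 15.8 CPM in proximal tubule-like nuclei against 1.34 CPM or less in every other group. An intronic peak at chr13:55405157-55406067 was open in all groups, from 9.0 to 19.9 CPM, and a peak at the gene end, chr13:55414732-55415771, which also covers the start of Pfn3, ranged from 5.54 to 18.4 CPM. These broad peaks held most of the Slc34a1 counts outside the proximal tubule-like class.

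Slc3a1, the rBAT gene, was at 100.5 CPM (93.7 to 108) in proximal tubule-like nuclei and at 75.7 CPM (68.8 to 83.2) in distal tubule or loop-like nuclei, both well above ureteric epithelium-like nuclei at 29.9 CPM (26.0 to 34.2). Clusters 0 and 2 had 10.3 CPM, 9.77-fold less than proximal tubule-like nuclei. All 8 of its Enl-WT peaks were highest in one of the tubule-like classes, 6 in proximal tubule-like and 2 in distal tubule or loop-like nuclei. The intronic peak at chr17:85043074-85044069 was nearly equal in the tubule-like classes, at 22.6 and 21.3 CPM, and was 3.29 CPM or less elsewhere. The peak upstream of the start, chr17:85026953-85027997, held 16.0 CPM in proximal tubule-like, 14.2 CPM in distal tubule or loop-like and 10.5 CPM in ureteric epithelium-like nuclei. The annotation places Prepl within the span of the gene.

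**Figure D3:**
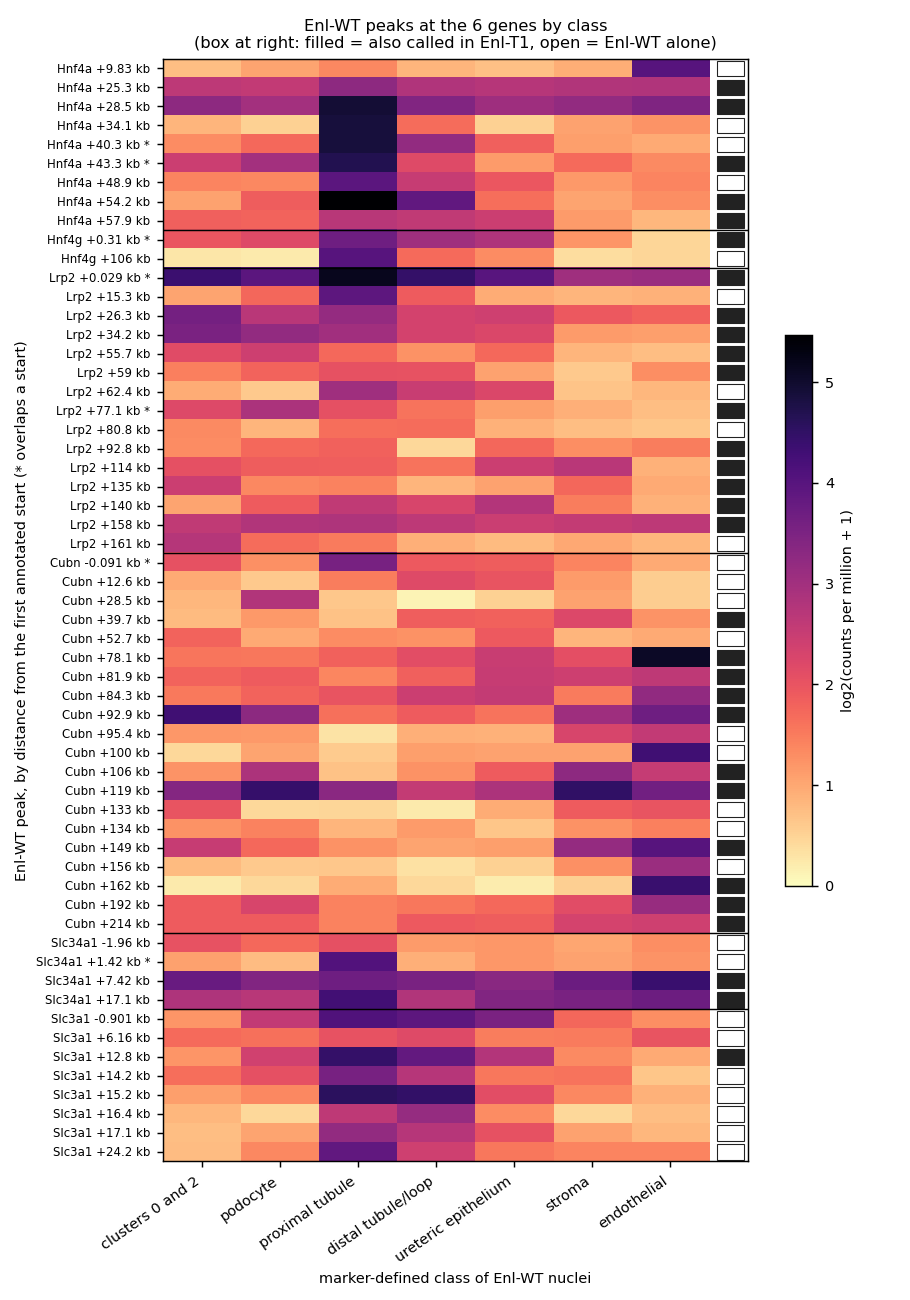
Heat map of log2(CPM + 1) for the 58 Enl-WT peaks of the 6 genes (rows, by distance in kb from the first annotated start) in 7 groups of Enl-WT nuclei (columns), with a filled box for peaks that overlap a peak of Enl-T1 and an open box for peaks of Enl-WT alone. The darkest cells are in the proximal tubule column for Hnf4a, Hnf4g, Lrp2 and Slc3a1 and in the endothelial column for Cubn and Slc34a1 (19.9 CPM, against 18.4 CPM in its darkest proximal tubule cell), and 7 of the 8 Slc3a1 boxes are open.

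Per kb of peak, a scale on which genes can be set side by side, proximal tubule-like nuclei of Enl-WT had 18.6 CPM per kb at Hnf4a, 14.3 at Hnf4g, 13.1 at Slc3a1, 11.8 at Slc34a1, 6.58 at Lrp2 and 2.1 at Cubn. Across 8 classes of Enl-WT nuclei, the log2 level of Hnf4g had a Pearson correlation of 0.920 with the mean of the 6 genes, Hnf4a 0.895, Slc3a1 0.858, Lrp2 0.652, Slc34a1 0.377 and Cubn -0.622. Each gene is part of that mean, and the classes share 1 library and its depth, so these are descriptions. Of 17184 genes ranked by the same measure, the most alike included Agxt2 (0.978), Slc22a6 (0.972), N6amt1 (0.963) and Slc23a1 (0.962). Slc22a6, an organic anion transporter gene, was also among the markers that named the class, and Slc23a1 encodes a vitamin C transporter. Proximal tubule-like levels were 28.3 CPM for Agxt2 and 54.8 CPM for N6amt1.

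The next comparison was which Enl-WT peaks were also called in Enl-T1. Of the 58 peaks, 31 (53.4%) were overlapped by an Enl-T1 peak, against 70.0% of all Enl-WT peaks. The other way, 31 of the 34 Enl-T1 peaks (91.2%) were overlapped by an Enl-WT peak, against 86.6% of all. With at least 200 counts, 54 of the 58 peaks could be assigned to the class in which they were highest, and the 4 that could not, 1 at Lrp2 and 3 at Cubn, were of Enl-WT alone. Of the 54, 26 were highest in proximal tubule-like nuclei, against 10.8% of all Enl-WT peaks, the genes having been chosen as proximal tubule genes. The highest class was taken whatever its margin over the next. Among these 26, 12 (46.2%) were overlapped in Enl-T1, where the share over all proximal tubule-like peaks was 55.9%. Among the 28 highest in another class it was 19 (67.9%), against 77.2%. Seen from the 23 assigned peaks of Enl-WT alone, 14 were highest in proximal tubule-like nuclei, against 19.0% of all peaks of Enl-WT alone. These 14 were 5 at Slc3a1, 3 at Hnf4a, 2 at Lrp2, 2 at Slc34a1, 1 at Hnf4g and 1 at Cubn.

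A peak that was not called in Enl-T1 has no count there, which is not a level of 0. Peaks were called in each library as a whole, and Enl-T1 held 119 proximal tubule-like nuclei against 976, so fewer nuclei of a type and less signal per nucleus cannot be told apart from the calls or from values over all nuclei. By gene, an Enl-T1 peak overlapped 1 of 8 Enl-WT peaks at Slc3a1, 5 of 9 at Hnf4a, 1 of 2 at Hnf4g, 2 of 4 at Slc34a1, 11 of 20 at Cubn and 11 of 15 at Lrp2. Peaks of Enl-T1 alone were few, 1 at Hnf4a and 2 at Lrp2, all over exons and with 1.79 to 2.12 CPM over all nuclei.

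For the comparison of levels between the libraries, counts were taken in the shared regions only and scaled to the counts in them. Over all nuclei, Hnf4a was 37.0 CPM in Enl-WT and 23.6 CPM in Enl-T1 (log2 ratio -0.65, -0.75 to -0.55). Slc3a1 was 6.10 and 2.46 CPM (-1.31, -1.61 to -1.01), from its 1 shared region. There the Enl-WT peak spanned 1214 bp and the Enl-T1 peak 914 bp, so the Slc3a1 ratios in every class were counted over more bases in Enl-WT. The other 4 genes were within 0.13 of 0 on the log2 scale. Lrp2 was 53.3 and 49.0 CPM (-0.12, -0.20 to -0.05), Cubn 60.7 and 66.5 CPM (0.13, 0.06 to 0.20), Slc34a1 24.9 and 23.8 CPM (-0.06, -0.17 to 0.05) and Hnf4g 4.50 and 4.92 CPM (0.13, -0.12 to 0.38). Hnf4g had 1 shared region, where the Enl-WT peak spanned 879 bp and the Enl-T1 peak 1362 bp. Its ratios in every class were thus counted over more bases in Enl-T1. Slc3a1 was thus 1 of 6 genes at least 2-fold lower in Enl-T1, against 0.166% of 16824 genes, and none was 2-fold higher, against 0.143%. The median of the 6 log2 ratios was -0.09, and that of all genes -0.03. Cubn turned to -0.15 when all peaks of each library were counted instead of the shared regions, since peaks of Enl-WT alone then added to the Enl-WT side only.

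Within proximal tubule-like nuclei, Hnf4a was 131 CPM in Enl-WT and 30.8 CPM in Enl-T1 (log2 ratio -2.09, -2.86 to -1.41). The Enl-T1 value rested on 35 counts in 119 nuclei, against 1801 counts in 976 nuclei. Slc3a1 was 24.7 and 11.4 CPM (-1.11, -2.51 to 0.00) and Slc34a1 35.3 and 20.2 CPM (-0.80, -1.80 to 0.04). The Slc3a1 peak counted was wider in Enl-WT, at 1214 bp against 914 bp. Hnf4g, at 13.9 and 8.79 CPM, had a log2 ratio of -0.66 (-2.31 to 0.62). Lrp2 was 89.1 and 59.8 CPM (-0.58, -1.12 to -0.08). Cubn lay on the other side of 0, at 29.2 and 47.5 CPM (0.70, 0.07 to 1.29). With all peaks of each library it was 42.1 CPM (37.8 to 46.8) and 45.4 CPM (29.9 to 66.1), intervals that overlapped. In this class 2 of 6 genes, Hnf4a and Slc3a1, were at least 2-fold lower in Enl-T1, against 2.29% of 14206 genes, and none was 2-fold higher, against 0.648%. All 6 had at least 200 counts over both libraries. These ratios could not be computed at the other clustering resolutions or with fewer components, where at most 3 Enl-T1 nuclei were left in the class. The median over the 6 genes was -0.73 and over all genes -0.07.

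Single regions within the class differed. The Hnf4a region around the internal start 43.3 kb into the gene was 25 CPM of all peak counts in Enl-WT and 10.1 CPM in Enl-T1, and the Lrp2 start was 34.7 and 18.5 CPM. The Hnf4a region 54.2 kb into the gene was 43.4 and 3.36 CPM, but there the Enl-WT peak and the Enl-T1 peak, chr2:163561000-163561878, overlapped by their edges only, so its counts were taken over largely different bases. With peaks matched by a reciprocal overlap of 80%, which keeps 2 of the 5 shared Hnf4a regions and leaves that one out, the Hnf4a log2 ratio was -1.57. In Enl-T1, with all its own peaks, the Hnf4a level of 32.0 CPM (19.2 to 49.9) in proximal tubule-like nuclei overlapped that of endothelial-like nuclei at 28.3 CPM and stroma-like nuclei at 27.2 CPM.

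The proximal tubule-like nuclei of the libraries were not alike in other genes. The summed level of the 16 proximal tubule markers, of which 13 had a shared region, was 357 CPM in Enl-WT and 206 CPM in Enl-T1, and 156 and 121 CPM over all nuclei. Within the class, Slc6a19 alone was 139 and 60.6 CPM. Its log2 ratio and those of Slc22a6 and Fbp1 had intervals below 0. The other markers with counts had intervals that included 0, and Slc5a2 and Slc13a3 each had a ratio of 0.40. The summed level of 8 early nephron epithelium markers was 633 and 719 CPM, and that of 9 endothelial markers 192 and 244 CPM. The part of these differences in the ratios of the 6 genes was not tested.

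In stroma-like nuclei, Hnf4a was 20.7 CPM in Enl-WT and 27.5 CPM in Enl-T1 (log2 ratio 0.41, 0.22 to 0.60). This includes the region 54.2 kb into the gene, at 1.04 and 3.02 CPM of all peak counts, where the peaks overlapped by 48 bp. The regions matched at 80% overlap, 43.3 and 57.9 kb into the gene, were 0.27 (-0.30 to 0.84) and 0.64 (-0.10 to 1.41). The unmatched region at 28.5 kb was 0.44 (0.16 to 0.73). By cluster, Hnf4a was 19.6 CPM (16.4 to 23.3) in Enl-WT and 27.9 CPM (23.5 to 32.9) in Enl-T1 in stroma-like cluster 1. In cluster 3 it was 20.0 and 23.4 CPM, in cluster 5 it was 17.4 and 16.8 CPM, and in cluster 7, the least deeply sequenced, it was 47.1 and 31.8 CPM, so the direction differed between clusters. Cluster 16, which scored for smooth muscle or ureteric stroma, had 20.6 and 33.9 CPM. Only in cluster 1 did the intervals of the libraries not overlap. Clusters 8 and 13, which were nearly all Enl-T1 with 5 and 39 Enl-WT nuclei, had 28.1 and 38.1 CPM. Their part in the class ratio was not tested. Hnf4g was 1.47 and 2.82 CPM (0.94, 0.26 to 1.64) from 57 and 113 counts, taken over a wider peak in Enl-T1. Cubn was 74.0 and 81.8 CPM (0.14, 0.04 to 0.25). Lrp2 at 32.6 CPM in both libraries, Slc34a1 at 25.6 and 25.5 CPM and Slc3a1 at 1.68 and 1.87 CPM had intervals that included 0. Of the 4 genes with at least 200 counts in this class, none was 2-fold lower or higher, against 0.0673% and 0.116% of 16351 genes. The summed proximal tubule markers were 78.7 CPM in Enl-WT and 83.5 CPM in Enl-T1 stroma-like nuclei.

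Clusters 0 and 2 are given by number, since each came mostly from 1 library. Hnf4a was 24.6 CPM (22.0 to 27.5) in Enl-WT nuclei of cluster 2 and 20.9 CPM (19.0 to 23.0) in Enl-T1 nuclei of cluster 0. Lrp2 was 73.3 CPM (68.6 to 78.1) and 68.3 CPM (64.7 to 72.1), Cubn 52.3 and 48.0 CPM, Slc34a1 20.8 and 23.3 CPM, and Slc3a1 1.41 and 1.32 CPM. The intervals of these 5 genes overlapped. Hnf4g was 3.26 CPM (2.34 to 4.41) and 5.11 CPM (4.16 to 6.21), intervals that overlapped only at their ends, and with both clusters pooled its log2 ratio was 0.60 (0.07 to 1.15). The Hnf4g peak counted was wider in Enl-T1, at 1362 bp against 879 bp. Overlapping intervals do not show that levels were alike, and the cluster and the library cannot be told apart here.

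In ureteric epithelium-like nuclei, Cubn was 37.9 and 54.2 CPM (log2 ratio 0.52, 0.28 to 0.75), higher in Enl-T1 beyond counting error. With all peaks of each library it was 46.6 CPM (41.7 to 51.9) and 51.8 CPM (46.9 to 57.1), intervals that overlapped. Hnf4g was 6.87 and 11 CPM (0.68, 0.13 to 1.24), but its counted peak was wider in Enl-T1, at 1362 bp against 879 bp. Hnf4a was 23.1 and 19.2 CPM (-0.27, -0.61 to 0.07). In endothelial-like nuclei, where Cubn was most accessible, it was 141 and 166 CPM (0.24, 0.05 to 0.43), and Lrp2 was 27.2 and 14.5 CPM (-0.90, -1.54 to -0.31) from 248 and 58 counts. In distal tubule or loop-like nuclei, with 76 Enl-T1 nuclei, Hnf4a was 43.3 and 17.9 CPM (-1.27, -2.73 to -0.13) from 436 and 12 counts, and Cubn 31.9 and 8.97 CPM (-1.83, -4.12 to -0.26) from 321 and 6 counts. With peaks matched at 80% overlap the Hnf4a value was -0.16. The Cubn value in that class depended on the clustering, with 0.14 at a resolution of 0.5, 0.06 at a resolution of 2 and -0.05 with components 2 to 15. With all peaks of each library Cubn was -0.01 in endothelial-like and -0.08 in stroma-like nuclei. In distal tubule or loop-like nuclei, 4 of the genes had at least 200 counts. Of these 4, Hnf4a and Cubn were at least 2-fold lower in Enl-T1, against 2.33% of 13226 genes, and none was 2-fold higher, against 0.628%. None of the genes with that many counts was 2-fold lower or higher in ureteric epithelium-like nuclei, against 0.0260% and 0.0520% of 15370 genes, or in endothelial-like nuclei, against 0.0605% and 0.0151% of 13219 genes. Hnf4g in endothelial-like nuclei rested on 4 and 13 counts, under that minimum.

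**Figure D4:**
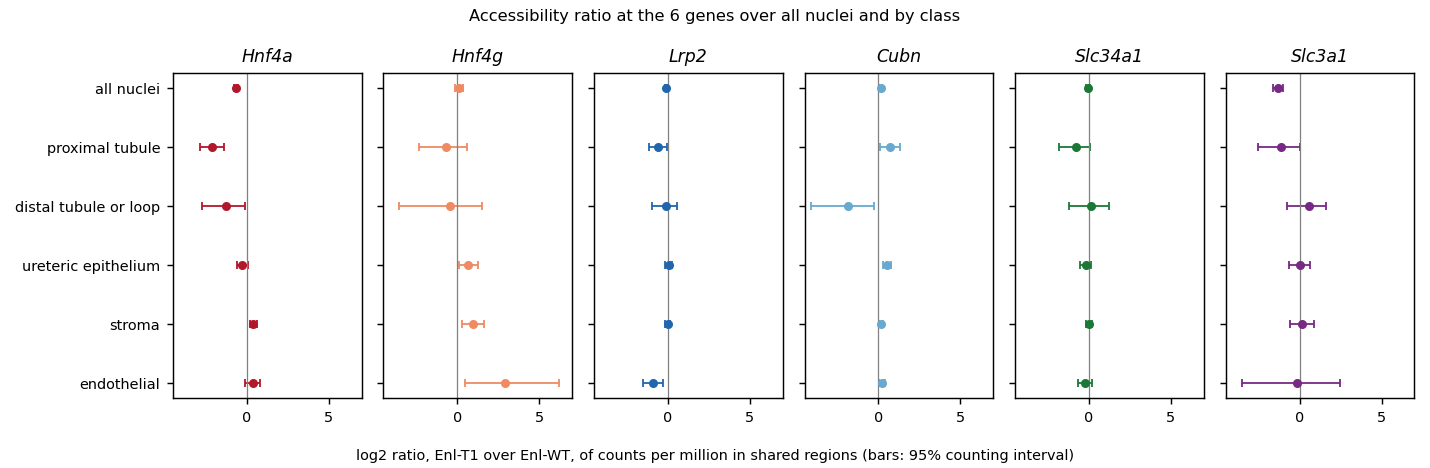
Log2 ratio of Enl-T1 to Enl-WT of CPM in shared regions (x axis) for each gene, over all nuclei and in 5 classes (y axis), with bars for the 95% counting interval. The Hnf4a point is at -2.09 in the proximal tubule and at 0.41 in stroma, and the Cubn points are at 0.70 in the proximal tubule and -1.83 in the distal tubule or loop.

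Whether the genes were open in the same nuclei was asked after each nucleus was thinned to 2000 counts in shared regions. Of the proximal tubule-like nuclei of Enl-WT, 19.1% (16.6 to 21.7%) then had a count at Hnf4a, 16.3% at Lrp2, 6.15% at Slc34a1, 5.74% at Cubn, 4.10% at Slc3a1 and 2.77% at Hnf4g. In stroma-like nuclei, a class outside the tubule, the shares were 3.53% at Hnf4a, 5.85% at Lrp2, 4.79% at Slc34a1, 12.3% at Cubn, 0.371% at Slc3a1 and 0.34% at Hnf4g, with median depths of 14206.5 counts in the proximal tubule-like and 12056 counts in the stroma-like class before thinning. Stroma-like nuclei were themselves high at Cubn, so they give no background for that gene. At Slc34a1 the shares of 6.15% (4.72 to 7.84%) and 4.79% (4.08 to 5.59%) overlapped, and no difference is read from them. At least 3 of the 6 genes were open in 7 of 976 proximal tubule-like nuclei of Enl-WT, 0.717% (0.289 to 1.47%), and in 0 of 119 of Enl-T1, which by the limit of 3 nuclei of the total allows a share of up to 2.52%, so a difference was not detectable at this depth. Over all nuclei, at least 3 were open in 12 of 9437 Enl-WT nuclei (0.127%, 0.0657 to 0.222%) and 18 of 12573 Enl-T1 nuclei (0.143%, 0.0849 to 0.226%), and these intervals overlapped. Without thinning the shares were 5.56% and 1.47%, with medians of 13120.5 and 8303 counts in shared regions. Thinned to 5000 counts, which left out 436 and 1803 shallower nuclei, they were 1.7% (1.45 to 1.99%) and 0.803% (0.644 to 0.99%), and in proximal tubule-like nuclei 7.11% (5.57 to 8.93%) of 956 Enl-WT nuclei and 0 of 115 Enl-T1 nuclei, which by the same limit allows up to 2.61%.

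A list of 15 genes that act beside the 6 was counted in the same way. Over all nuclei the median of their log2 ratios was -0.13. Of the 15, 1 was at least 2-fold lower in Enl-T1, against 0.166% of 16824 genes, and none was 2-fold higher, against 0.143%. The interval lay below 0 for 8 of them and above 0 for 2. The highest was Slc4a4, a sodium bicarbonate cotransporter gene, at 112 and 139 CPM (0.31, 0.26 to 0.36). Slc7a9, the transporter that rBAT joins, was 11 and 8.39 CPM (-0.39, -0.57 to -0.22), and in proximal tubule-like nuclei 27.3 and 12.3 CPM (-1.15, -2.49 to -0.08). Amn, which carries cubilin to the membrane, was 8.59 and 7.56 CPM (-0.18, -0.38 to 0.01). Dab2, an endocytic adaptor of megalin, was 67.3 and 68.5 CPM (0.03, -0.04 to 0.09) over all nuclei and 87.8 and 46.6 CPM (-0.91, -1.53 to -0.35) in proximal tubule-like nuclei. Pdzk1, a scaffold of the brush border, was 15.6 and 10.6 CPM (-0.56, -0.71 to -0.41). In proximal tubule-like nuclei the median of the 15 was -0.38, and the log2 ratios ran from -1.15 at Slc7a9, the 1 gene of the list that was at least 2-fold lower, to 0.05 at Maf. Over all genes in this class, 2.29% of 14206 were at least 2-fold lower.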

How the data were processed

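Nuclei from embryonic day 15.5 kidneys were profiled by single-nucleus ATAC-seq, with 1 library each for Enl-WT and Enl-T1. Per the submitters' processing notes, the authors used Cell Ranger ATAC 2.1.0 and mm10, and they deposited for each library a peak-by-barcode table of raw counts, in which most values are even because both ends of a fragment are counted. Peaks were called in each library separately.

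Barcodes with 2000 to 100000 counts were kept (98.38% of 9628 for Enl-WT, 94.46% of 13376 for Enl-T1, with 138176616 and 110265593 counts before filtering). The fragment-based filters of the study were not applied, and doublets were not removed except in an alternative. Peaks were joined into shared regions. Counts outside the regions of the 6 genes were reduced by TF-IDF and singular value decomposition (components 2 to 30), joined into a shared-neighbour graph (15 neighbours) and clustered by Leiden at resolution 1. Clusters were named from fixed marker lists. Levels are CPM, from the peaks of each library where classes were compared, and from shared regions where libraries were compared. The plan had named shared regions for both, and the count of genes highest in the proximal tubule-like class is given both ways. Intervals are exact (Poisson on fragments, taken as counts divided by 2, or Clopper-Pearson). No test was made, since each group had 1 library. Genes or regions needed 200 counts for background shares.

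The genes named were the 6 genes, 6 of the 15 partner genes with the partners at either end of the range, and the 5 genes most alike, of which some are not reported here. The 6 genes and all lists were chosen with earlier results of these data known. Alternatives changed the matching of peaks, the regions counted, the minimum count, the scaling, the clustering, doublets and the thinning depth. The ratio step was tested on simulated data. Analyses used Python 3.11.15, numpy 2.4.6, scipy 1.17.1, scikit-learn 1.9.0, python-igraph 0.11.9 and leidenalg 0.10.2.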

Additional observations from a re-analysis of the deposited data

Results flagged for a closer look

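The log2 ratio of Enl-T1 to Enl-WT at Hnf4a lay on opposite sides of 0 in different classes, with counting intervals that excluded 0. It was -2.09 in proximal tubule-like, -1.27 in distal tubule or loop-like and 0.41 in stroma-like nuclei. The distal tubule or loop-like value was -0.16 with peaks matched at 80% overlap. Each of the Hnf4a values includes the region 54.2 kb into the gene, where the peaks of the libraries overlapped by 48 bp. Cubn also lay on opposite sides of 0, with -1.83 in distal tubule or loop-like nuclei against 0.70 in proximal tubule-like, 0.52 in ureteric epithelium-like, 0.14 in stroma-like and 0.24 in endothelial-like nuclei. With 1 library per group the difference between classes was not tested for either gene, and the Cubn value in distal tubule or loop-like nuclei rested on 6 Enl-T1 counts. That value was 0.14 and 0.06 at the other clustering resolutions. With all peaks of each library Cubn was -0.08 in stroma-like and -0.01 in endothelial-like nuclei. Its intervals then overlapped between libraries in proximal tubule-like nuclei, at 42.1 and 45.4 CPM, and in ureteric epithelium-like nuclei, at 46.6 and 51.8 CPM. The contrast of Cubn between classes thus depends on these choices.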

How the results depend on the processing

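No paired analysis was possible because each group had 1 library and the labels carry no replicate numbers. For the medians, gene counts and shares of nuclei taken as main results, 47 values under an alternative were counted as the same and 22 as moved. These include shares at another number of open genes or another depth. For single genes, 417 of 454 values under an alternative lay within the counting interval of the main value, 32 moved beyond it and 5 reversed. A reversal was counted only where the main interval excluded 0. A value inside an interval that included 0 could change sign and still be among the 417. The reversals were all at Cubn. With all peaks of each library it was -0.15 over all nuclei, -0.08 in stroma-like and -0.01 in endothelial-like nuclei, and in distal tubule or loop-like nuclei it was 0.14 at resolution 0.5 and 0.06 at resolution 2. The median of the 6 genes over all nuclei, -0.09, was -0.33 with all peaks, -0.30 with regions at starts and -0.23 as the share of thinned nuclei with a count. Hnf4a in proximal tubule-like nuclei ran from -2.52 (all peaks) to -1.47 (regions at starts), and in stroma-like nuclei from 0.24 (all peaks) to 0.50 (doublets removed). With peaks matched at 80% overlap, 2 genes were highest in proximal tubule-like nuclei instead of 4.

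The share of proximal tubule-like nuclei depended on the clustering. In Enl-WT it was 11.9% with a minimum of 5000 counts, 0% at resolution 0.5, 4.62% at resolution 2 and 7.34% with components 2 to 15, and in Enl-T1 it was 1.31%, 0%, 0% and 0.0237%, and 0.762% with doublets removed. Ratios within this class could not be computed at either other resolution or with components 2 to 15, since 0 to 3 Enl-T1 nuclei were left, so they rest on clusterings at resolution 1 with components 2 to 30. In the other clusterings of that kind, the Hnf4a ratio was -1.72 with a minimum of 5000 counts (145 Enl-T1 nuclei), -2.01 with the regions of the 6 genes included (113) and -2.37 with doublets removed (86). The share with at least 3 genes open over all nuclei at 5000 counts was 1.7% for Enl-WT and 0.803% for Enl-T1. At 2000 counts, the share with at least 2 open was 3.48% and 2.37%, and with at least 4 open 0% and 0.00795%. In proximal tubule-like nuclei of Enl-WT it was 7.11% with at least 3 open at 5000 counts, and at 2000 counts 9.32% with at least 2 open and 0% with at least 4 open. Depth limits the Enl-T1 values of the tubule-like classes, and without replicate libraries the spread between kidneys is unknown.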
